A study of Homo sapiens with 16 samples.

Results

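The profile described here is the absolute signal of 4 gene-level arrays of L1236 cells labelled as induced, out of 16 samples in the series. L1236 is an established cell line of human Hodgkin lymphoma. The cells had been spin-infected on consecutive days with a retrovirus carrying a short hairpin RNA against RELB, and doxycycline was then added to switch the hairpin on. The uninduced arrays carry the same virus without doxycycline. They enter here only for the check of RELB and for the spread in an alternative fit of the differences among the 4 arrays. No array without virus or with another hairpin is among the groups used. All cells grew in RPMI medium with fetal bovine serum. The 4 arrays are titled B_1 D_1, B_1 D_4, B_4 D_1 and B_4 D_4 and are called replicates 1, 2, 3 and 4, and values for single arrays are given in that order. The labels do not say what the B code or the last number stand for, nor whether the arrays came from separate cultures, so the spread between them may be technical. The 8 exon-level samples carry the titles of the 8 gene-level ones and are a second summary of the same arrays.

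The tumour cells of Hodgkin lymphoma, named after Hodgkin, Reed and Sternberg, descend from germinal centre B cells but have lost much of the B-cell programme. They are known for the receptor CD30 and for constant activity of NF-kB and JAK-STAT signalling. NF-kB is a family of paired transcription factors that inhibitory IkB proteins hold in the cytoplasm until a kinase complex marks them for destruction. RELB pairs mainly with the product of NFKB2 in the alternative branch, which receptors of the TNF family such as CD40 switch on through the kinase encoded by MAP3K14.

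RELB itself read 7.22, 7.26, 7.39 and 7.14 on the arrays labelled induced, a mean of 7.25 ± 0.11 (SD, n = 4) in log2 units, and 7.23, 7.38, 7.54 and 7.45 on the arrays labelled uninduced, a mean of 7.40 ± 0.13 (SD, n = 4). The groups overlapped. The difference of -0.15 had p = 0.171 in a two-sided exact permutation test, in which 4 arrays against 4 can reach 0.0286 at the lowest. The medians of the arrays labelled induced were 0.13 lower (difference -0.13). Centring the 8 arrays on their medians brought the RELB difference to -0.012 (p = 0.857 in the same exact test). It was -0.11 after quantile normalization and -0.11 at exon level (p = 0.286 for each in the same exact test). At the level of RNA on these arrays the target was therefore not shown to be lower, and the group is called the arrays labelled induced.

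Members of the profile were the 19460 probe sets that the platform annotation pairs with exactly 1 gene symbol, of 33297 on the array (58.4%), ranked by their mean over the 4 arrays. They cover 18395 genes, each given by its brightest probe set. Means ran from 2.49 to 13.89 with a median of 6.18. Probes bind with different strength, so a rank is only a rough guide to the amount of RNA, and no fold between genes is given. To mark the floor, 360 probe sets for olfactory receptors, the odour sensors of the nose, were used as genes that a lymphoid line was assumed not to express. Their median was 3.85, and the 95th percentile of their means, 5.33, was taken as the ceiling of background. A probe set was called bright in the top 10% of the ranking, at a mean of 9.21 or more. These are descriptions of level, without a test.

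By this rule 1946 probe sets (10%) were bright, 7031 (36.1%) were at background and 10483 lay between. Of the bright ones, 1684 were bright on each of the 4 arrays (86.5%), 6369 of those at background were so on each (90.6%), and 0 were bright on one array and at background on another. The median SD over the arrays was 0.14 and 114 probe sets had an SD over 0.5. Counted by gene, 1811 (9.85%) were bright and 6676 (36.3%) at background, the shares against which each list below is read. Exactly 1 olfactory receptor was bright: OR2V1 read 10.04, 10.41, 9.36 and 10.31, while the next highest of the family had a mean of 5.99.

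**Figure D1:**
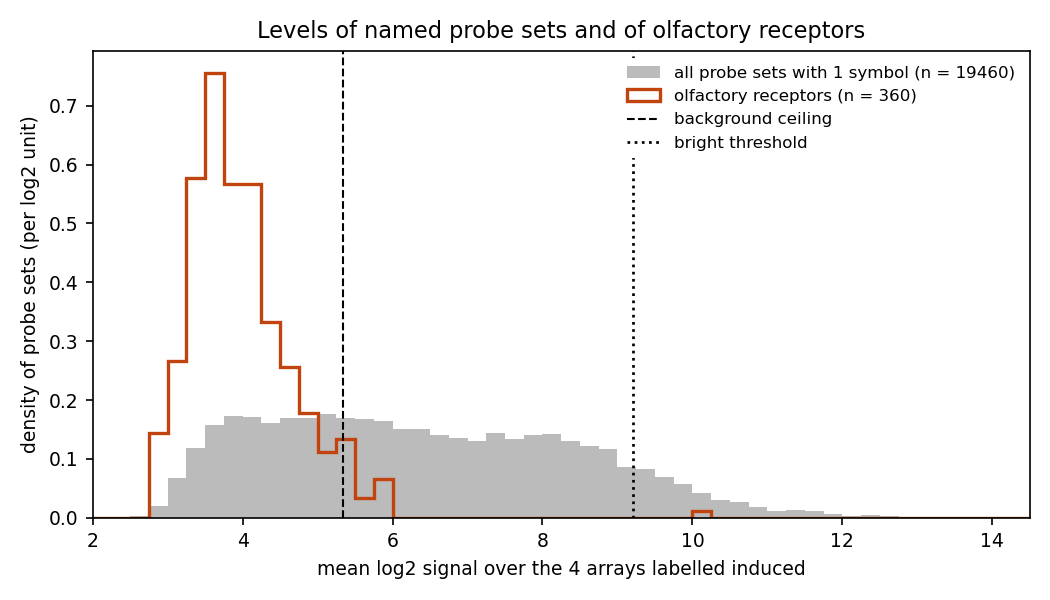
Density of probe sets with 1 gene symbol (grey, n = 19460) and of olfactory receptor probe sets (red line, n = 360) by mean log2 signal over the 4 arrays labelled induced. The dashed line is the background ceiling at 5.33 and the dotted line the bright threshold at 9.21, and most olfactory receptors sit below the first.

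Enzymes of glycolysis, translation and the cytoskeleton stood at the head of the ranking. ENO1, the glycolytic enolase, ranked 1 with 13.87, 13.90, 13.78 and 14.02, and GAPDH, glyceraldehyde phosphate dehydrogenase, ranked 2 with 13.58, 13.68, 13.52 and 13.80. EEF1A1, the elongation factor that brings aminoacyl-tRNA to the ribosome, held ranks 3 and 4 with both its probe sets, at 13.61 and 13.58. The actins ACTG1 (13.41) and ACTB (13.03), the small acidic protein PTMA (13.28), the chaperone HSPA8 (13.05), the elongation factor subunit EEF1G (12.98) and the ribosomal proteins RPL4, RPL5, RPS3, RPS4X and RPL18 (12.92 to 13.26) also lay among the first 20, with ATP5F1B, the catalytic beta subunit of ATP synthase, at 12.95, and the tubulin TUBB at 12.85. Many of these genes have near-identical copies in the genome, and the array cannot be assumed to separate them. FAF2 ranked 6 at 13.40, but its other probe set read 9.92, so the assignment of the first is uncertain. The same holds for PTMA, with 6 probe sets from 5.90 to 13.28 and an exon-level mean of 6.01, for RPL5, whose dimmest of 3 probe sets read 8.58, and for MALAT1, whose other probe set read 8.68. The only non-coding RNA among the first 20 was MALAT1, a long RNA of nuclear speckles, at 12.99, 13.06, 12.78 and 12.92.

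Bright and background genes had upstream sequences of different base composition. RefSeq windows of GRCh38.p14 were matched by symbol for 14222 genes, and the 250 bases upstream of each start were searched on both strands. The median GC content was 64.8% for bright genes, 65.2% for genes between and 56% for background genes, and the median count of CpG dinucleotides was 22, 20 and 7. The letters CCGGAAG, which ETS family factors are known to bind, occurred in 19.1% of bright, 15.2% of between and 5.01% of background windows, against 12.1% of all windows. They occurred in 14 of 49 windows of ribosomal protein genes (28.6%). The GC box GGGCGG occurred in 69.9%, 66.3% and 39.9% of the same classes and in 57.5% of all windows, and the letters TATAAA in 6.75%, 5.72% and 13.7%, with 8.6% over all and 29.1% in olfactory receptors. A match of letters is a description and not a shown binding site, and the share of matches moves with base composition. Olfactory receptors set the ceiling, so most fall at background by construction, and they were kept in these classes. They had 275 windows, beside 4933 of background genes, with a median GC content of 37.2%. A part of the contrast is thus built in, and its size was not computed.

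Windows that hold these letters, each around the match nearest the start, are shown for a bright ribosomal protein gene, a bright respiratory chain gene, a bright proliferation gene and an olfactory receptor at background, as examples of the letters counted above. Capitals mark the matched letters. The RPL3 window lies at chr22:39319644-39319710 on the minus strand, COX6A1 at chr12:120438067-120438112 on the plus strand, MKI67 at chr10:128126424-128126477 on the minus strand and OR5T3 at chr11:56252198-56252253 on the plus strand.
RPL3 (CCGGAAG, 57 bases before the start): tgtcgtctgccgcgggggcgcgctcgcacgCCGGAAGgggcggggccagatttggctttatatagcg
COX6A1 (CTTCCGG, the same letters on the other strand, 16 bases before the start): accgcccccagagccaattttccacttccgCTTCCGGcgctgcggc
MKI67 (ATTGG, the letters CCAAT on the other strand, 24 bases before the start, overlapping a GC box): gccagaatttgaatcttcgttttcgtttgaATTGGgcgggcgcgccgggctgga
OR5T3 (TTTATA, the letters TATAAA on the other strand, 26 bases before the start): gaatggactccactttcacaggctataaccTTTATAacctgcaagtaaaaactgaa
RPL3, a protein of the large ribosomal subunit, had a mean of 12.32, COX6A1, a subunit of cytochrome c oxidase, 11.35, and MKI67, the proliferation antigen Ki-67, 10.46, whereas OR5T3 had 2.97. The letters CCAAT of the MKI67 window occurred in 17 of 23 windows of genes for DNA replication and mitosis (73.9%), against 34.4% of all windows, 39.1% of bright windows and 39.3% of olfactory receptor windows. The RPL3 window also holds the letters TTTATA, left in lower case, so these letters are found in both a bright and a background gene.

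The lineage lists held both bright and background genes. In each list the 3 brightest and the 3 dimmest measured members are named, and members named beside them were chosen after their values were seen. All 4 genes taken as markers of the profile were bright on each array. TNFRSF8, which encodes CD30, read 11.54, 11.68, 11.47 and 11.66 (mean 11.59 ± 0.10, rank 151). CD79A, the signalling chain of the B-cell receptor, read 10.91, 11.34, 10.75 and 11.15 (mean 11.04 ± 0.26, rank 277). CD38, an ectoenzyme abundant on plasma cells, read 11.07, 11.40, 10.96 and 11.35 (mean 11.19 ± 0.22, rank 241). ST6GAL1, the sialyltransferase that caps B-cell glycans with sialic acid, read 10.55, 11.06, 10.60 and 10.76 (mean 10.74 ± 0.23, rank 380). Their exon-level probe sets lay above the exon-level ceiling in 16 of 16, 10 of 10, 10 of 10 and 8 of 8 cases. Replicate 2 had the highest value of each of the 4 markers and replicate 3 the lowest of TNFRSF8, CD79A and CD38, while the lowest value of ST6GAL1 was on replicate 1.

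Of 29 measured markers of Hodgkin and Reed-Sternberg cells, 7 were bright (24.1%), 14 lay between and 8 were at background (27.6%). IRF4, which drives plasma cell differentiation, was the brightest at 11.72, 11.80, 11.43 and 11.64. TNFAIP3, the ubiquitin-editing brake on NF-kB also known as A20, followed TNFRSF8 at 11.20, 10.92, 10.37 and 11.25, and its lowest array was replicate 3. The costimulatory ligand CD70 (9.16) and the adaptor TRAF1 (8.58) lay just under the bright threshold or well above background, as did CD40 (7.48). Chemokines that draw regulatory T cells into Hodgkin tumours lay between the thresholds, CCL17 at 6.56 and CCL22 at 5.82, as did FUT4, the fucosyltransferase that makes the CD15 epitope (6.20, 6.50, 6.37 and 6.46). The dimmest were IL13RA1, an IL-13 receptor chain, at 3.35, the receptor SLAMF1 at 3.61 and CD274, the PD-1 ligand PD-L1, at 4.27, 3.96, 4.14 and 4.08. For CD274 all 4 values lay below the background ceiling.

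Among 33 measured B-cell identity genes 9 were bright, 15 lay between and 9 were at background. PLCG2, the phospholipase downstream of the B-cell receptor, led at 12.37, 12.37, 12.26 and 12.30 in its brighter probe set. Its other probe set had a mean of 10.71, below the values of PAX5. PAX5, the factor that commits cells to the B lineage, read 11.80, 11.87, 11.71 and 11.87, and CD22, an inhibitory sialic acid receptor, 10.37, 10.29, 9.66 and 10.45. The Ikaros family factors IKZF1 (9.91) and IKZF3 (9.65) were bright as well. At the other end, MS4A1, which encodes CD20, read 4.37, 4.63, 4.46 and 4.62, below the ceiling on each array, and so did the scaffold BANK1 (mean 3.86) and CD24 (mean 3.39). CD79B, the partner chain of CD79A, read 5.999, 6.34, 6.45 and 6.27, between the thresholds. Both chains belong to the same complex and fell into different classes, though their probes differ. The kinase BTK was at background (mean 5.10), whereas LYN, the kinase that acts first at the receptor, lay at the bright threshold (9.21).

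Of 16 plasma cell genes 9 were bright (56.3%), 6 lay between and 1 was at background. XBP1, the factor that expands the secretory pathway, read 11.52, 11.59, 11.28 and 11.50, and PIM2, a survival kinase of plasma cells, 11.54, 11.49, 11.11 and 11.40. PRDM1, the repressor that ends the B-cell programme, read 10.65, 10.76, 10.22 and 10.73, so it and PAX5, which it is known to repress, were both bright in the same RNA. MZB1, a chaperone of antibody chains, had a mean of 10.08. JCHAIN, which joins antibodies into polymers, was the 1 member at background, at 3.63, 3.70, 3.46 and 4.50, with replicate 4 above the others. SDC1 (CD138) read 6.43, SLAMF7 6.15 and DERL3, which exports misfolded proteins from the endoplasmic reticulum, 6.18, all between the thresholds.

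**Figure D2:**
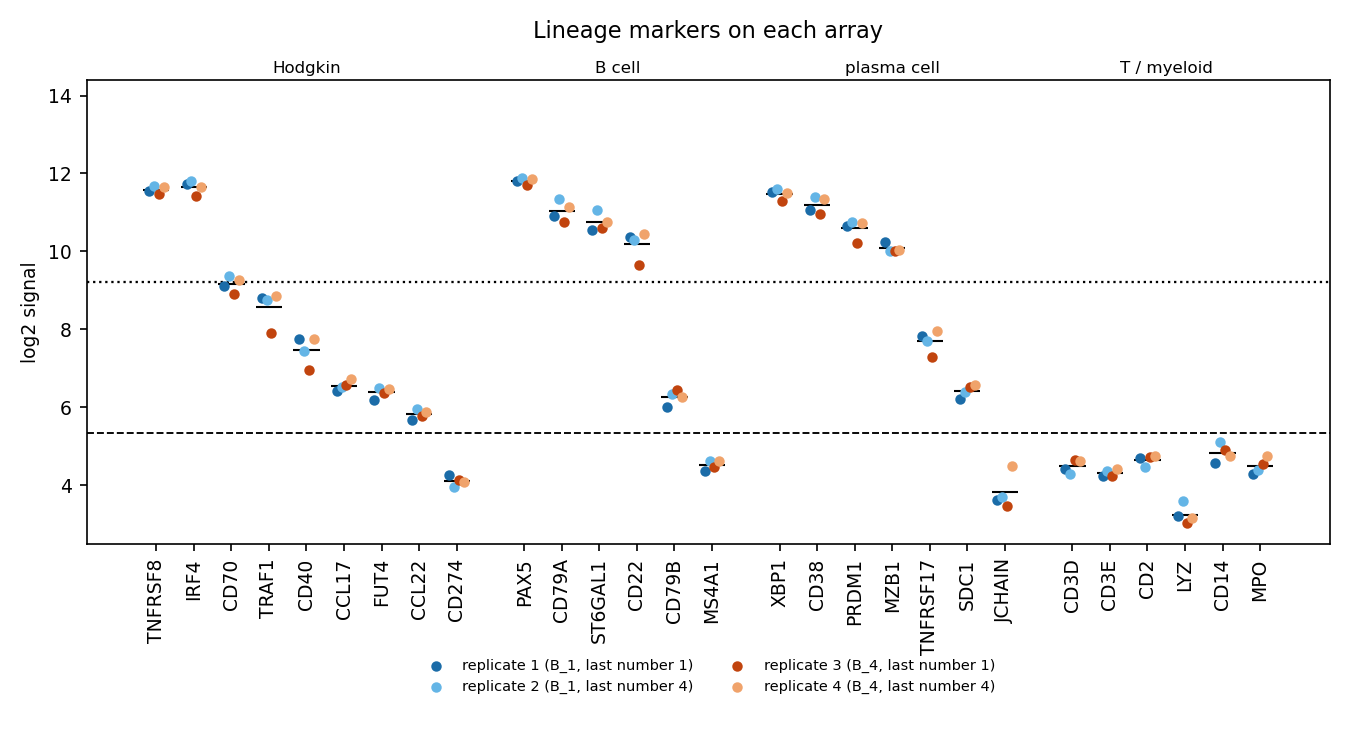
Log2 signal of lineage markers on each of the 4 arrays labelled induced (coloured points), with the mean as a black line, the background ceiling dashed and the bright threshold dotted. TNFRSF8, IRF4, PAX5, CD79A, ST6GAL1, CD22, XBP1, CD38, PRDM1 and MZB1 lie above the bright threshold, while MS4A1, CD274, JCHAIN and the 6 T-cell and myeloid genes lie below the ceiling.

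Markers of other cell types were mostly at background: of 143 measured in 10 lists, 90 were at background (62.9%) and 1 was bright. That gene was EOMES, a transcription factor of natural killer and memory T cells, at 9.41, 8.81, 9.55 and 9.50. It exceeded the bright threshold on each array except replicate 2, and the other natural killer genes at the top of its list were NKG7 (7.06) and the protease GZMB (6.16), with KLRD1 (3.04), KLRB1 (3.18) and FCGR3A (3.25) the dimmest. Of 18 T-cell markers 12 were at background, among them the CD3 chains CD3D (4.43, 4.30, 4.64 and 4.63), CD3E (4.24, 4.36, 4.25 and 4.43) and CD3G (mean 4.70). The T-cell list was topped by CD7 (7.89), ZAP70 (7.24), a kinase of the T-cell receptor, and FOXP3 (5.93), while CD28 (3.83) and SH2D1A (4.37) were among the dimmest. Myeloid and dendritic markers were at background in 15 of 19, including LYZ, lysozyme, at 3.20, 3.59, 3.04 and 3.17, the scavenger receptor CD163 (3.64) and FCER1G (3.89), and the highest were ELANE (6.99), CEBPA (6.52) and CD68 (6.04). The defining genes CD2 (4.66) of T cells and CD14 (4.83) and MPO (4.49) of myeloid cells were at background on each array, though CD14 was above the ceiling in the exon-level summary.

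Lists of tissues other than blood, and of red cells and platelets, also held no bright gene. Liver markers were at background in 10 of 14 (ALB, albumin, 3.70), neuronal and glial ones in 10 of 15, muscle in 8 of 13, endothelial in 8 of 12, fibroblast and matrix in 9 of 16, erythroid and megakaryocyte in 6 of 11 and epithelial in 5 of 13. The epithelial share, 38.5%, was close to the 36.3% of all genes, and 8 of its genes lay between the thresholds. Shares of the other lists ran from 54.5% to 71.4%. In the liver list FGG (6.25), APOA1 (6.13) and APOC3 (5.69) were the highest and CYP3A4 (3.31), HP (3.39) and AHSG (3.49) the lowest, and in the neuronal list RBFOX3 (5.89), GFAP (5.78) and NEFL (5.69) the highest and MAP2 (3.54), STMN2 (4.23) and GAD1 (4.30) the lowest. Muscle genes ran from ACTA1 (7.08), DES (6.17) and MYOG (5.72) down to MYOD1 (4.23), MYL2 (4.12) and MYH2 (3.85). Endothelial genes ran from EGFL7 (6.95), CLDN5 (6.45) and ROBO4 (5.88) to TIE1 (4.29), KDR and FLT1 (3.33), and red cell and platelet genes from KLF1 (6.69), GATA1 (6.10) and ALAS2 (5.79) to TAL1 (4.91), PPBP (4.18) and PF4 (4.09). Of the matrix genes COL1A1 (6.69) and ACTA2 (6.60) followed COL6A3, and DCN (3.32), FAP (3.29) and LUM (3.24) were the lowest, while among epithelial genes CLDN3 (6.92) was next to CDH1 and KRT18, and KRT20 (4.78), CLDN4 (4.67) and EPCAM (4.53) were the lowest. The highest of all these members were CDH1, E-cadherin, at 7.95, the keratin KRT18 at 7.67 and the collagen COL6A3 at 8.13, 8.03, 7.50 and 6.94, all between the thresholds. COL6A3 was lower on both B_4 arrays than on both B_1 arrays, by -0.86 (limma adjusted p = 0.197, not past the threshold of 0.05).

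NF-kB subunits and their inhibitors were all above background on these arrays, with 4 of 11 bright and 7 between. NFKBIA, the classical IkB alpha and itself an NF-kB target, was the brightest at 11.34, 11.16, 10.89 and 11.05. REL read 10.14, 10.30, 9.95 and 10.26 and NFKB1, the precursor of p50, 10.17, 10.01, 10.14 and 10.11, both bright on each array. NFKB2, the precursor of p52, read 8.93, 8.70, 8.52 and 8.75 and RELA 8.74, 8.70, 8.61 and 8.70, both between the thresholds. RELB, with a mean of 7.25 and rank 6821, had the lowest mean of the 5 subunits, and only the nuclear IkB NFKBID (7.11) was lower in the list. The SD of the 5 subunits over the arrays ran from 0.05 to 0.17, so their values on single arrays lay close together.

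Of 19 measured NF-kB kinases, adaptors and regulators, 4 were bright, 15 lay between and 0 were at background. TRAF3, the adaptor that marks the alternative pathway kinase for destruction, read 10.22, 9.97, 10.09 and 10.26, and IKBKE, an IkB kinase relative that also acts in interferon induction, 9.71, 10.07, 8.99 and 9.57, with replicate 3 the lowest. MAP3K14, that alternative pathway kinase, read 7.27, CYLD, a deubiquitinase, 6.63, BCL10, an adaptor of antigen receptors, 7.12, and IKBKG, the scaffold of the IkB kinase complex, had the lowest mean, 5.72. Of 19 TNF receptor family members, TNFRSF8, TNFRSF13B (TACI, 10.17, 10.13, 10.19 and 10.20) and CD27 (10.14, 9.67, 9.85 and 10.28) were bright. The death receptor FAS read 9.11, 8.95, 8.26 and 9.12, again lowest on replicate 3. TNFRSF21 (4.94) and TNFRSF11A (RANK, 5.23) were at background, and the TNF receptor TNFRSF1A read 5.41.

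JAK-STAT signalling had 8 bright genes of 29, with 5 at background. JAK1, a kinase shared by many cytokine receptors, read 11.56, 11.94, 11.33 and 11.55, STAT3 10.64, 10.41, 10.70 and 10.78 and STAT6, the factor downstream of IL-4 and IL-13, 9.57, 9.51, 9.58 and 9.49. IL21R, the IL-21 receptor, was bright at 9.98, 9.86, 9.60 and 10.001, as were the shared receptor chains IL10RB (9.65), IL6ST (9.48) and IL2RG (9.34). The IL-13 receptor chain IL13RA1, named above, IL7R (3.80) and STAT4 (3.95) were the dimmest. JAK2 read 6.14 and its inhibitor SOCS1 5.50, little above the ceiling.

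B-cell receptor signalling was uneven along its chain. PLCG2 and CD79A were joined by PRKCB, the protein kinase C isoform of B cells (10.22, 10.03, 10.04 and 10.09), among 6 bright of 22, and RASGRP1, an activator of RAS, read 9.88. VAV3 (3.40) and BTK were at background, and BLK read 5.41. In the PI3K, AKT and mTOR list 4 of 21 were bright: AKT1 (10.10), MTOR (10.07), EIF4EBP2 (9.96) and PDK1 (9.77, 9.88, 9.03 and 10.16), which despite its place in this list is the kinase that restrains pyruvate dehydrogenase, and which was lowest on replicate 3. DEPTOR, an mTOR inhibitor, was at background (4.18), and FOXO3 (5.62) and EIF4EBP1 (6.13) were next. Among MAP kinase and AP-1 genes the bright ones were MAP2K1 (10.19), JUNB (10.18, 10.23, 9.86 and 10.28), MAPK9 (9.24) and BATF (9.24), 4 of 22. FOS (5.18) and the feedback genes DUSP6 (5.001), DUSP4 (4.43) and SPRY2 (3.59) were at background, and JUN read 6.24.

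Of 32 measured chemokines and cytokines 0 were bright and 17 (53.1%) were at background, against 9.85% and 36.3% of all genes. EBI3, a subunit of IL-27 and IL-35, was the highest at 8.89, 9.07, 8.30 and 9.41, followed by TGFB1 (8.55) and IL10 (8.13, 8.13, 8.15 and 8.52), and IL2 (3.09), IL21 (3.20) and IL5 (3.40) were the lowest. CXCL10, an interferon-induced chemokine, spread over 8.10, 7.48, 8.29 and 8.91, lowest on replicate 2. In the list of Toll-like receptors and interferon sensors 2 of 20 were bright and 7 at background (35%), close to the shares over all genes. The 7 were TLR1, TLR2, TLR3, TLR4, TLR6, TLR7 and TLR8 (3.24 to 4.51), while TLR9, which senses unmethylated DNA, read 5.56, 6.50, 6.28 and 6.27. The cytosolic DNA sensor CGAS (9.50, 9.56, 9.32 and 9.15) and its partner STING1 (9.32, 9.45, 9.23 and 9.18) were the 2 bright members, and IRF8 read 9.19.

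Homing receptors included 4 bright genes of 19. CXCR4, the receptor for the bone marrow chemokine CXCL12, read 11.17, 11.23, 10.79 and 11.38, ITGB7, the gut-homing integrin chain, 10.70, 10.86, 10.18 and 10.95, CCR7, the lymph node receptor, 10.24, 10.54, 10.16 and 10.21, and ITGA4 a mean of 9.68. CCR1 (4.01), CCR2 (4.12) and CCR6 (4.19) were at background. CXCR5, the receptor that takes B cells into follicles, was too (4.61). In the antigen presentation list 9 of 17 were bright (52.9%) and 0 at background. B2M, the light chain of class I molecules, read 11.27, 11.23, 11.004 and 11.31, the loading chaperone TAPBP 11.22, 11.23, 10.93 and 11.24 and the class II chain HLA-DPA1 11.13, 11.33, 10.71 and 11.23. HLA-DQB1 spread over 8.83, 9.11, 7.72 and 8.93, CIITA, the master regulator of class II genes, had a mean of 7.60, and the peptide exchange regulators HLA-DOA (7.42) and HLA-DOB (5.53) were the lowest. HLA genes are polymorphic, and probes built on a reference sequence may bind alleles unequally.

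Growth factor receptors were largely at background: 16 of 24 receptor tyrosine kinases (66.7%), with KIT (3.42), FLT3 (4.02) and KDR (4.13) the dimmest. MET, the receptor of hepatocyte growth factor, read 9.55, 9.04, 9.39 and 9.62 and DDR2, a collagen receptor, 9.56, 9.11, 9.30 and 9.09, the 2 bright members, though another DDR2 probe set had a mean of 7.69. IGF1R came next with a mean of 7.10. Nuclear receptors had 0 bright of 18 and 6 at background, from NR3C1, the glucocorticoid receptor (8.60, 8.41, 8.21 and 8.29), RXRB (7.72) and RARB (7.44) down to PPARG (4.45), PGR (3.74) and AHR (3.39). In the Notch, Wnt, Hedgehog and TGF-beta list 4 of 29 were bright, NOTCH2 (9.95), SMAD4 (9.65), CTNNB1 (9.44) and SMAD2 (9.25). The other SMAD2 probe set had a mean of 7.43. In this list 7 were at background, the lowest WNT5A (3.73), LRP6 (4.07) and FZD6 (4.40). HES1, a Notch target, read 8.63, 8.90, 7.80 and 9.11, lowest on replicate 3.

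**Figure D3:**
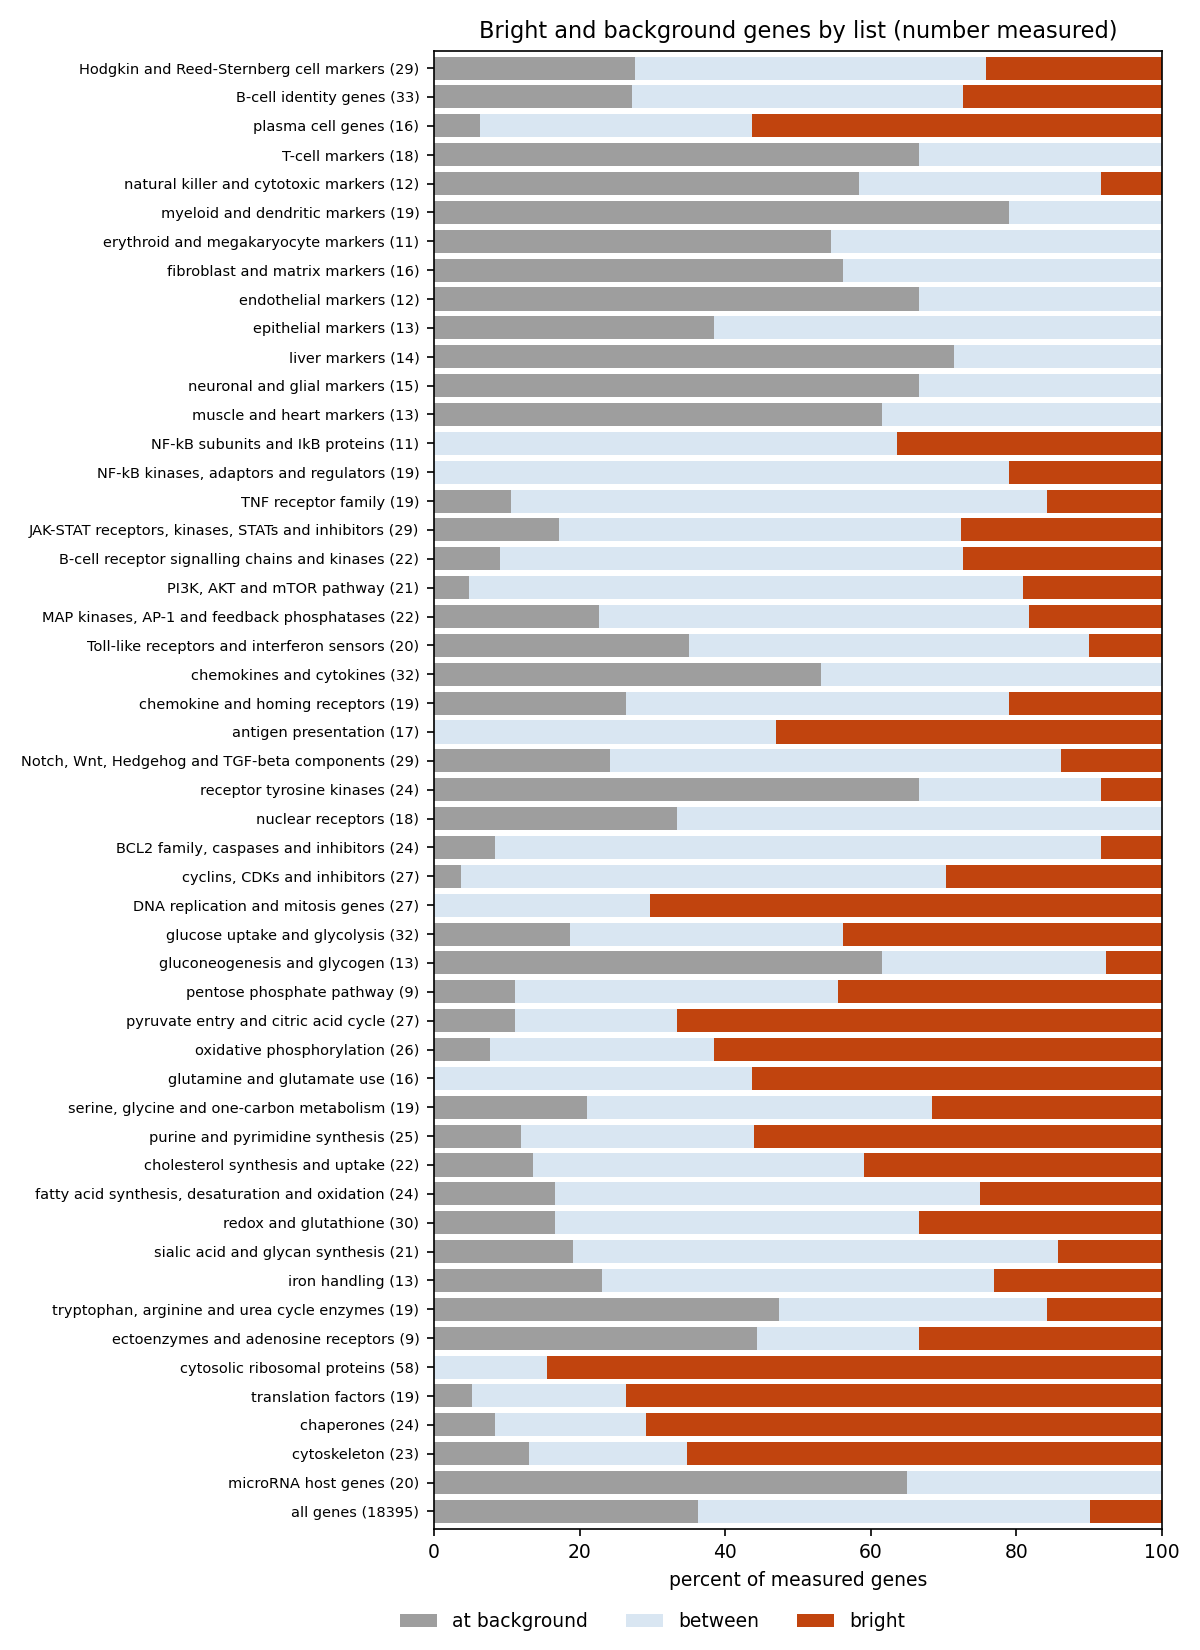
Percent of the measured genes of each list that were at background (grey), between (pale blue) or bright (red) over the 4 arrays labelled induced, with the number measured in brackets and all 18395 genes at the foot. Ribosomal proteins are bright in 84.5% and myeloid markers at background in 78.9%, against 9.85% and 36.3% of all genes.

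The cell cycle was well represented. Of 27 genes of DNA replication and mitosis 19 were bright (70.4%) and 0 at background. TYMS, thymidylate synthase, read 10.99, 10.77, 10.87 and 10.64, BUB1B, a spindle checkpoint kinase, 10.82, 10.49, 10.62 and 10.86 and MKI67 10.62, 10.48, 10.45 and 10.29. The lowest members, CENPE (7.25), CDT1 (7.80) and CENPF (8.20), were still well above the ceiling. Among cyclins, cyclin-dependent kinases and inhibitors 8 of 27 were bright. CCND2, the cyclin D of many B cells, read 11.71, 11.73, 11.51 and 11.49 and CDK4 10.37, 10.14, 10.33 and 10.21, followed by CCNB1 (10.23), while CCND1 read 6.16 and CCNA1, the germ cell cyclin A, was the 1 member at background (4.30). The inhibitors CDKN2A (8.05), CDKN1A (7.46) and CDKN2B (6.38) lay between.

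Survival genes clustered in the middle of the scale, with 2 bright of 24, 20 between and 2 at background. MCL1, a short-lived BCL2 relative, read 11.75, 12.11, 11.81 and 11.87 and CASP9, the initiator caspase, 9.19, 9.30, 9.07 and 9.48. BCL2 read 8.35, 8.42, 7.65 and 8.82, lowest on replicate 3, and BID, which links death receptors to mitochondria, 8.94. BIK (5.20) and BCL2A1 (5.26), the latter a known NF-kB target, were at background, and CASP10 (5.80) was next.

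Metabolic lists held 114 bright genes of 292 (39%) and 55 at background (18.8%). In glycolysis 14 of 32 were bright, 12 between and 6 at background, and isozymes of the same step often fell into different classes. ENO1 and GAPDH headed the whole ranking, and LDHA, the lactate dehydrogenase chain of active muscle and tumours, read 12.79, 12.87, 12.73 and 12.89, PKM, pyruvate kinase, 12.66, 12.77, 12.60 and 12.77, LDHB 12.35, 12.13, 12.37 and 12.31 and PGK1 11.76, 11.91, 11.63 and 12.15. Several tissue-restricted relatives were at background or between the thresholds: PGK2 and LDHC, the testis forms, read 4.30, 4.06, 4.15 and 3.75 and 5.98, 5.54, 5.40 and 5.66, GAPDHS, the sperm form, 5.003, PKLR, the liver and red cell form, 5.79 and HK3 4.95. Other relatives were not dim: ENO2, the enolase of neurons, was bright (10.38, 10.34, 9.79 and 10.71) and ENO3, that of muscle, lay between (8.10, 8.21, 7.55 and 7.97), as did PGAM2, the muscle mutase (6.37). Of the hexokinases HK2, the inducible form, was bright (10.04, 9.81, 9.48 and 10.13) and HK1 lay between (7.69). Glucose carriers split likewise, with SLC2A1 (9.64, 9.78, 9.16 and 9.86) and SLC2A3 (9.73, 9.57, 8.66 and 10.03) bright by mean and SLC2A2, the liver and beta cell carrier, at background (3.71), as were the regulators PFKFB1 (4.22) and PFKFB2 (4.34). SLC2A3, a carrier of high affinity, was lowest on replicate 3.

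**Figure D4:**
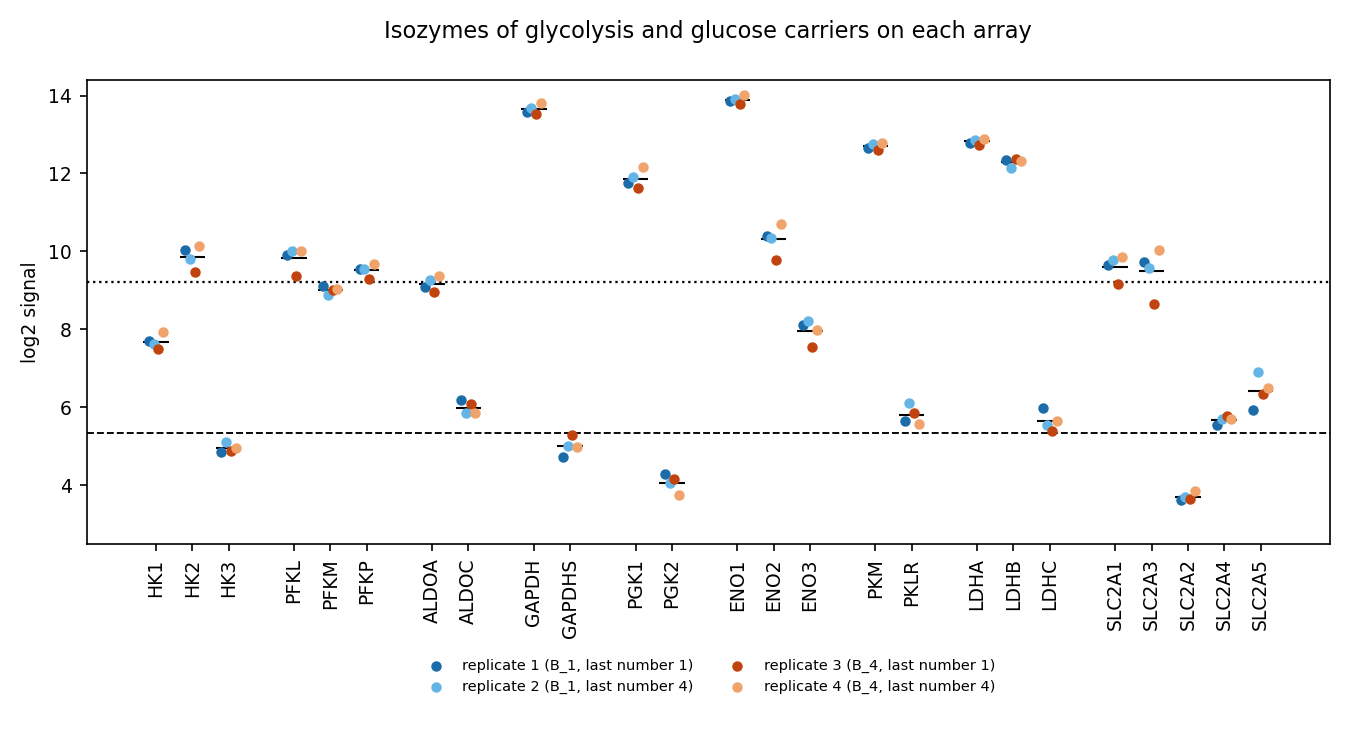
Log2 signal of glycolytic isozymes and glucose carriers on each of the 4 arrays labelled induced, drawn as in the plot of lineage markers. In each family at least 1 form lies near or above the bright threshold, and HK3, GAPDHS, PGK2 and SLC2A2 have means below the ceiling.

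Glucose storage and synthesis held few bright genes. Of 13 genes of gluconeogenesis and glycogen 8 were at background (61.5%), with G6PC1 (3.48), GYS2 (3.61) and FBP2 (3.84), forms of liver or muscle, the dimmest. UGP2, which makes UDP-glucose, was the 1 bright member (10.10, 10.10, 9.996 and 9.91), and the next were GYS1 (8.40) and GBE1 (8.16). PCK2, the mitochondrial carboxykinase, lay between (7.81) and PCK1, the cytosolic one, at background (4.63). The pentose phosphate pathway had 4 bright of 9, led by PGD (12.01, 11.85, 11.74 and 11.87), TKT (9.63) and TALDO1 (9.59), with RPIA (8.38) and PGLS (6.58) between and the transketolase-like TKTL1 at background (4.56).

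Of 27 genes of pyruvate entry and the citric acid cycle 18 were bright (66.7%), with MDH2, malate dehydrogenase, at 11.66, 11.45, 11.69 and 11.74, SDHA at 11.45, 11.19, 11.30 and 11.46 and IDH3A at 11.42, 11.05, 11.59 and 11.32. The 3 at background were ME1, the cytosolic malic enzyme (3.60, 3.49, 3.44 and 3.49), ME3 (5.23) and PDHA2, the testis form of pyruvate dehydrogenase (4.79), whereas ME2 (10.20) and PDHA1 (10.03) were bright. Of the isocitrate dehydrogenases that use NADP, IDH1 was bright (9.41) and IDH2 near the ceiling (5.998, 5.49, 5.89 and 5.22). Oxidative phosphorylation had 16 bright of 26, headed by ATP5F1B, ATP5F1A (11.54) and UQCRC2 (11.43). Its 2 background genes were UCP1, the uncoupler of brown fat (4.32), and COX7A1, the muscle form of a cytochrome oxidase subunit (5.13), and COX4I2 followed (5.51).

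All 16 measured genes of glutamine and glutamate use were above background and 9 were bright, with GOT2 (12.09, 11.65, 11.88 and 11.93), GFPT1, the entry to hexosamine synthesis (11.73, 11.28, 11.54 and 11.84), and GLUL, glutamine synthetase (11.58, 11.38, 11.48 and 11.83), the brightest and GPT (5.85), SLC7A11 (8.01, 6.59, 7.41 and 7.44) and ASNS (8.58, 7.53, 8.49 and 8.17) the lowest. SLC7A11, the cystine carrier, and ASNS, asparagine synthetase, both had their lowest value on replicate 2. In serine, glycine and one-carbon metabolism MAT2A (11.27, 11.21, 11.42 and 11.21), SHMT2 (11.22, 10.94, 11.08 and 11.12) and MTHFD2 (11.20, 10.80, 10.93 and 11.09) led 6 bright of 19. The enzymes that make serine from glucose differed in class: PSAT1 was at background (5.05, 4.54, 4.99 and 4.95), PHGDH just above it (5.49, 5.60, 5.59 and 5.72) and PSPH well above (8.36). MAT1A (4.80) and BHMT (4.83), enzymes of liver, were at background.

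Nucleotide synthesis had 14 bright of 25, led by PAICS (10.73), RRM1 (10.16) and GART (10.11), and XDH, which degrades purines, was the dimmest (4.41) with CTPS2 (4.88) and ADSS1 (5.26). Cholesterol synthesis had 9 bright of 22, SQLE (10.83), IDI1 (10.07) and INSIG1 (9.93) first, while the exporters ABCA1 (3.99) and ABCG1 (5.22) and the muscle isomerase IDI2 (3.76) were at background. HMGCS1, the enzyme that commits to the pathway, read 10.33, 9.95, 9.07 and 9.73, lowest on replicate 3. Fatty acid genes had 6 bright of 24, with ELOVL5 (11.37), ACADM (10.79) and ACLY (10.67) the highest, and the lipid uptake genes FABP4 (3.15), CD36 (3.44) and LPL (4.27) at background. Redox genes had 10 bright of 30, led by TXN (11.27), PRDX3 (11.26) and GPX4 (10.84), with GPX2 (4.21), GSTM2 (4.60) and GSTA1 (4.62) lowest.

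Sialic acid and glycan enzymes gave 3 bright of 21: ST6GAL1, B4GALT1 (9.51) and MGAT5 (9.28). ST6GAL2, which makes the same linkage as ST6GAL1 in other tissues, was at background (4.57, 4.62, 4.52 and 4.50), as were ST3GAL6 (3.64) and ST8SIA1 (4.99). In iron handling TFRC, the transferrin receptor, read 11.69, 11.71, 11.74 and 11.45, and FTL (10.47) and ALAS1 (9.60) completed 3 bright of 13, whereas SLC40A1, the iron exporter ferroportin (3.55, 3.63, 3.55 and 3.84), TF (4.19) and HFE (4.38) were at background. Polyamine enzymes SRM (10.62), ODC1 (10.58) and SMS (9.36) were the 3 bright genes of the tryptophan, arginine and urea cycle list of 19. Its 9 background members included TDO2 (3.21), ARG1 (3.53) and IDO2 (3.61), and also IDO1 (3.75, 4.14, 4.18 and 3.90), the tryptophan-degrading enzyme of immune suppression. Among 9 ectoenzymes and adenosine receptors CD38, ENTPD1, which splits extracellular ATP (10.53, 10.28, 10.21 and 10.45), and ADA (9.23) were bright, while NT5E (CD73, 4.06, 3.87, 3.88 and 3.81), DPP4 (4.05) and ENPP1 (3.67) were at background. ENTPD1 and NT5E act in sequence on extracellular ATP, and here the first was bright and the second at background.

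Genes of the general machinery of the cell were bright in 95 of 144 (66%). Of 58 measured ribosomal protein genes 49 were bright (84.5%) with a median of 11.71, and RPS29 (7.13), RPL22 (7.90, 6.79, 7.38 and 7.80) and RPL32 (7.50) were the lowest. Translation factors were bright in 14 of 19, PABPC1 (12.41) after EEF1A1 and EEF1G, and EIF4E (5.13) was the 1 at background, with EIF5A2 (5.35) and EEF1A2 (6.60) next. Chaperones were bright in 17 of 24, with PDIA6 (12.57) and HSP90AA1 (12.51) after HSPA8, and HSPA4L (4.01), HSPA1L (4.45) and HSPA6 (5.70) lowest. Of 23 cytoskeleton genes 15 were bright, and PLS3 (3.80), PFN2 (4.19) and ACTG2 (4.998), the forms of other tissues, were at background, while LCP1, the plastin of blood cells, read 12.60, 12.51, 12.39 and 12.46.

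MicroRNA genes were dim on this array. Of 173 microRNA genes with 1 symbol 0 were bright and 127 (73.4%) were at background, against 14 bright of 175 small nucleolar RNA genes and 3 of 636 long non-coding RNA genes, MALAT1, SNHG29 (11.30) and SPANXA2-OT1 (9.66). A probe set for a microRNA gene reads its precursor or host RNA and not the mature strand. Over all microRNA genes the highest means were those of MIR326 (8.66), MIR339 (7.87) and MIR139 (7.46), none of them in the list of 20 microRNA and host genes. Mature strands of MIR21, MIR142 and MIR15A, the highest in that list after the host gene MIR17HG, are shown from RefSeq (GRCh38.p14) to tell apart and group their seeds (bases 2 to 8, in capitals). MIR16-1, for its shared seed, and MIR210 were added after their values were seen.
hsa-miR-21-5p (chr17:59841273-59841294, plus strand): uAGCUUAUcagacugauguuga
hsa-miR-142-5p (chr17:58331283-58331303, minus strand): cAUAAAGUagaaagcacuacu
hsa-miR-142-3p (chr17:58331245-58331267, minus strand): uGUAGUGUuuccuacuuuaugga
hsa-miR-15a-5p (chr13:50049167-50049188, minus strand): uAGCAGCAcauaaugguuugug
hsa-miR-16-5p (chr13:50049027-50049048, minus strand): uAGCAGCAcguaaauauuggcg
hsa-miR-210-3p (chr11:568112-568133, minus strand): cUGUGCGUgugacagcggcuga
The miR-15a and miR-16 strands share the seed AGCAGCA and come from a common cluster on chromosome 13, yet MIR15A read 6.42, 7.29, 5.75 and 6.87 and MIR16-1 4.34, 4.11, 3.92 and 4.31, the latter below the ceiling on each array. MIR21, a known STAT3 target, read 7.32, 6.84, 6.50 and 7.07, MIR142, a blood cell microRNA, 7.05, 6.98, 6.76 and 6.13, and MIR210, a known target of hypoxia signalling, 6.95, 7.38, 7.33 and 7.23. The host gene MIR17HG was the highest in the list (7.63), and MIR135A2 (2.88), MIR181A1 (3.07) and MIR16-2 (3.36) were the lowest.

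The arrays were alike as a whole, with Pearson correlations across probe sets of 0.992 to 0.994 for the 6 pairs of arrays, and arrays of one B code were not closer to each other than to the rest. The 5 genes of the largest SD above background were DDIT4, SLFN11, PFKFB4, HILPDA and STS. DDIT4, an inhibitor of mTOR under stress, read 9.51, 9.99, 7.63 and 10.19 (SD 1.17), PFKFB4, a hypoxia-induced regulator of glycolysis, 8.46, 8.87, 6.84 and 9.08 (SD 1.01) and HILPDA, a lipid droplet protein induced by hypoxia, 9.26, 9.19, 7.62 and 9.82 (SD 0.95). STS, steroid sulfatase, read 8.82, 9.66, 7.58 and 9.32 (SD 0.91). In DDIT4, PFKFB4, HILPDA and STS replicate 3 was the lowest array. INSIG2 (9.52, 9.59, 8.04 and 9.70), the histone demethylase KDM3A (8.56, 8.85, 7.29 and 8.71) and the mitophagy receptor BNIP3L (9.24, 9.79, 8.32 and 9.72), chosen after their values were seen, were lowest on it too. Of the 50 genes with the largest SD above background, 27 had their lowest value on replicate 3, 14 on replicate 2, 5 on replicate 1 and 4 on replicate 4, while over all 11719 genes above background 25.1% had it on replicate 3. The median of the glycolysis list was 8.77, 8.87, 8.10 and 9.05 on the 4 arrays, and that of ribosomal proteins 11.75, 11.70, 11.65 and 11.70. A single array carries this pattern, so no comparison of groups tests it.

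SLFN11, a factor of the replication stress response, followed the B code and read 8.13, 7.82, 6.25 and 6.03 (SD 1.07), lower on both B_4 arrays. Across 11719 genes above background limma called 10 genes between B_4 and B_1 (0.0853% of those tested, adjusted p under 0.05, 2 arrays against 2), 3 higher and 7 lower in B_4. SLFN11 differed by -1.84 ± 0.17 (SE) with an adjusted p of 4.27e-05 in limma. PRICKLE1, a planar polarity protein, read 6.11, 6.07, 7.52 and 7.54 and was higher in B_4 by 1.44 ± 0.16 (SE), with a limma adjusted p of 0.000300. Both passed in each of 10 alternative fits, with limma adjusted p of at most 0.0303 and 0.0495, of which 4 leave out 1 array and so set 1 array against 2, on the assumption that the lone array varies like the others. APBA1 (6.92, 6.25, 7.80 and 7.63) and XAF1, an interferon-induced inhibitor of XIAP (5.75, 5.56, 6.46 and 6.70), were the others higher in B_4, by 1.12 and 0.92.

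Of the 7 genes lower in B_4, TNFRSF9, the costimulatory receptor 4-1BB, read 6.92, 6.58, 5.40 and 5.76 and CD37, a tetraspanin of B cells, 7.81, 7.55, 6.26 and 6.73, differences of -1.17 and -1.18 with adjusted p of 0.0117 each in limma. PLAC8 (9.17, 9.20, 8.06 and 8.17), CYRIA (7.53, 7.37, 5.96 and 6.60), KIAA1217 (6.14, 6.19, 5.12 and 5.40) and LHFPL6 (7.02, 6.97, 6.08 and 6.17) were lower too, with differences of -1.07, -1.17, -0.91 and -0.87. In each of the 10 genes both B_4 arrays lay on the same side of both B_1 arrays. They were picked by a low p from these same values, which makes this arrangement nearly certain, so it adds no support. The direction in the alternative fits is no separate check either, since several of these fits leave the difference itself unchanged. Apart from SLFN11 and PRICKLE1 these calls depended on the setting, each passing in 4 to 7 of 10 alternatives, with the same direction in all 10. Without replicate 2 the count of calls was 2 and without replicate 4 it was 68, each from 1 array against 2. With the last number as a replicate block it was 21. SIT1, the next gene by p among those higher in B_4, read 6.17, 6.04, 6.76 and 7.72 (limma adjusted p = 0.101).

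**Figure D5:**
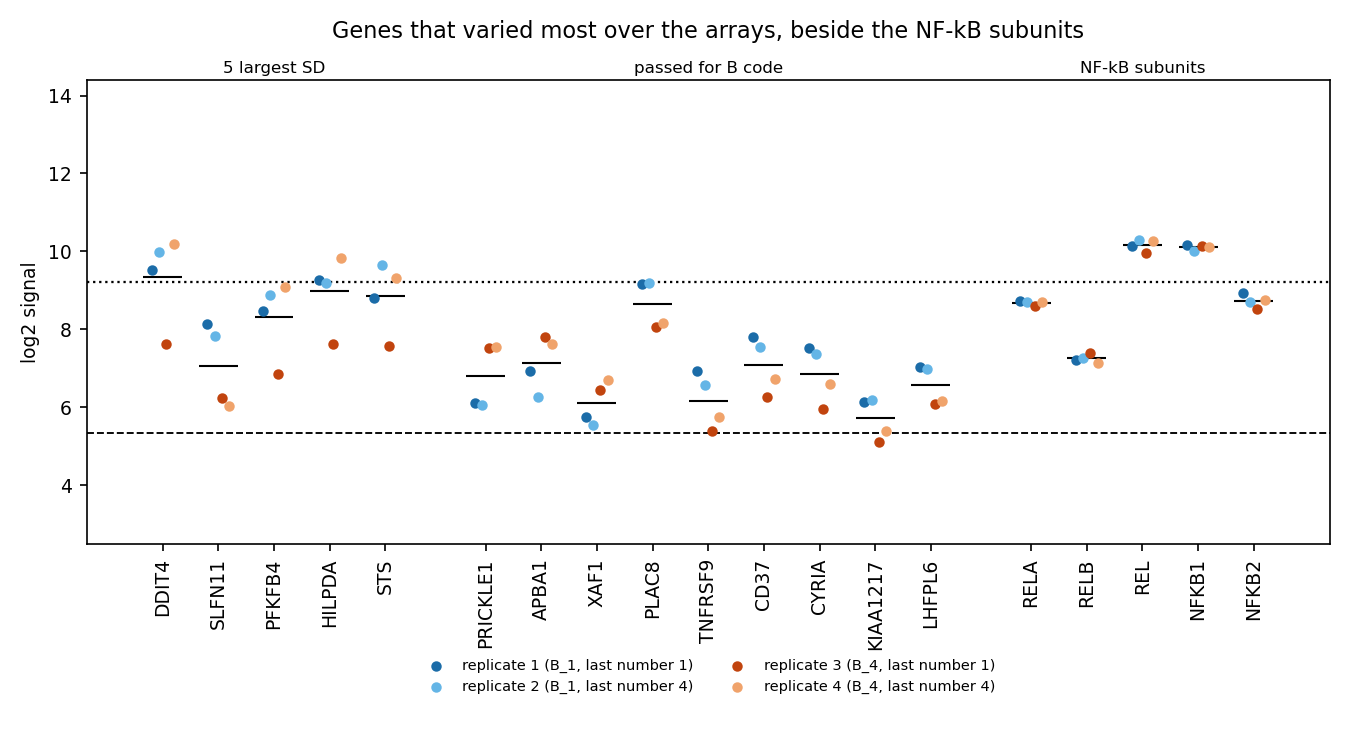
Log2 signal on each of the 4 arrays labelled induced for the 5 genes of the largest SD, the other 9 genes that passed for the B code and the 5 NF-kB subunits, drawn as in the plot of lineage markers. DDIT4, PFKFB4, HILPDA and STS are lowest on replicate 3, SLFN11 separates by B code, and the NF-kB subunits lie close together.

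The last number gave 0 calls of 11719 (0%) in limma at an adjusted p under 0.05, with 893 genes at an unadjusted p under 0.05, against 478 for the B code. Where no gene differs, a share of 0.05 of the tests is expected to pass unadjusted by chance. The count for the last number lay above that share of 11719 and the count for the B code below it. With the B code as a replicate block 14 genes were called, and without replicate 1 there were 10. The lowest p belonged to LIFR, the receptor of leukaemia inhibitory factor, at 5.88, 4.67, 6.08 and 5.12, a difference of -1.09, and SELPLG, the selectin ligand PSGL-1, at 6.44, 7.28, 6.35 and 7.09, a difference of 0.79, both with a limma adjusted p of 0.649. APOL3 (0.85), PLOD3 (0.64) and the chemokine CCL3 (0.62) were next among those higher with last number 4, and ANKMY2 (-0.81), SCARNA9L (-0.77) and TMEM237 (-0.66) among those lower, all with the same limma adjusted p of 0.649. In each of these 8 genes the arrays of one last number did not overlap those of the other. Picking the lowest p among 11719 genes from the same values makes this nearly certain, so it adds no support.

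The exon-level summary of the same arrays gave similar classes. Over 17439 genes present in both, the means correlated at r = 0.968 across genes, which are not independent. Of the bright genes 82.2% were bright there too, of those between 91.2% and of those at background 90.5% kept their class. The median share of a gene's exon-level probe sets above their own ceiling was 100% for bright genes, 85.7% for those between and 20% for background genes. Exactly 2 bright genes, ZNF257 and VKORC1, fell to background at exon level, and 0 background genes became bright. Among genes named as bright above, ALAS1, B4GALT1, BATF, CD27, CGAS, CTNNB1, CXCR4, DDIT4, DDR2, IDH1, IDI1, LYN, MAPK9, PTMA, SLC2A3, SNHG29, SPANXA2-OT1 and STAT6 lay between the thresholds at exon level, and among those named as background, BIK, CD14, COX7A1, EIF4E, GSTM2, ME3, PSAT1, ST6GAL2, TAL1 and TNFRSF11A lay above the exon-level ceiling. Of other named genes that lay between, APOC3, BLK, COX4I2, EIF5A2, HLA-DOB, HSPA6 and NEFL were at background at exon level. EBI3, HLA-DQB1, IRF8 and PLAC8 were bright at that level. ZNF257 had a mean of 10.41 in its brightest probe set and 3.96 in its other one. Of its 6 exon-level probe sets 1 was above the ceiling, and VKORC1 had only 1 such probe set. Of 788 genes with several gene-level probe sets, 279 differed by over 1 log2 unit between them and 12 had both a bright and a background one.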

How the data were processed

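RNA of the L1236 arrays was taken with TRIZOL, and sense-strand cDNA was biotin-labelled with an Affymetrix whole-transcript kit, per the labels' protocols. The deposited values are log2 signals per probe set, for which the submitters' processing notes name RMA and Partek without versions (base 2 is inferred from RMA's usual scale and the range of the values). RMA equalises arrays and compresses dim signals. Genome build and filtering have no statement in the sources used here. With 4 arrays, their number limits the precision.

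Groups came from the treatment label. Of 33297 gene-level probe sets, 19460 had 1 symbol in the platform annotation, 1754 several (never named) and 12083 none, and 27 old symbols were updated through RefSeq. Background was the 95th percentile of 360 olfactory receptor means, and bright the top 10% of probe sets. Limma 3.58.1 (R 4.3.3, data.table, version 1.17.8) compared B codes and last numbers over genes above background, with Benjamini-Hochberg adjustment at 0.05, and RELB had an exact permutation test. Other ceilings, shares, normalizations, filters, blocks, left-out arrays and the exon-level table were tried as alternatives. Another alternative fit let all 8 gene-level arrays, the uninduced ones included, share the spread. Levels and figures were made with Python 3.11.15, numpy 2.4.6, pandas 2.3.3 and matplotlib 3.10.9. Simulated data used each gene's SD over all 4 arrays, for the B code and the last number alike. With the B code labels, 40% of 50 genes changed by 1 log2 unit were recovered among 11719. Of those changed by 2, 84% were recovered (4 of 116 calls were false). With the last number labels the shares were 50% and 88% (5 of 125). Since the spread was the same, the 2 runs differ only by the random draw and show no difference in power. The genes named were RELB, the other NF-kB subunits and the 4 markers, the first 20 probe sets, the 3 highest and 3 lowest members of each list, the 5 largest SDs and the 4 lowest p in each direction, others being named after their values were seen. Members and lists were chosen with earlier results of these data known. List members without a probe set of 1 symbol were not analysed here.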

Additional observations from a re-analysis of the deposited data

Results flagged for a closer look

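Of 415 named genes, 13 had 1 array far from the other 3, by Dixon's ratio of gap to range. Chance alone flags about 1 in 20 such groups, and 13 of 415 is below that share. The genes are therefore listed for a closer look and not as results beyond chance. Replicate 3 was the low array for TRAF1 (7.90 against 8.75 to 8.86, ratio 0.8826), INSIG2 (8.04 against 9.52 to 9.70, ratio 0.8938), INSIG1 (9.36 against 10.06 to 10.20, ratio 0.8310), TAPBP (10.93 against 11.22 to 11.24, ratio 0.9443), MAP2K1 (9.87 against 10.27 to 10.32, ratio 0.8766) and BHMT (4.58 against 4.89 to 4.95, ratio 0.8305), the last at background, and the high one for TLR3 (4.30 against 4.05 to 4.09, ratio 0.8291), also at background. INSIG1 and INSIG2 both encode anchors that hold the sterol-sensing complex in the endoplasmic reticulum. Replicate 1 was low for EEF1G (12.94 against 12.99 to 12.996, ratio 0.9569), LPL (4.03 against 4.33 to 4.37, ratio 0.8784), NEFL (5.62 against 5.71 to 5.72, ratio 0.8896) and MIR339 (7.51 against 7.98 to 8.003, ratio 0.9512). Replicate 4 was high for IL10 (8.52 against 8.13 to 8.15, ratio 0.9521) and RPS29 (7.20 against 7.10 to 7.11, ratio 0.8594). For EEF1G, NEFL and RPS29 the gap was under the median SD of 0.14 over all probe sets.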

How the results depend on the processing

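The share called bright was set at 10%. The count of background probe sets was 7031 and moved to 3755 with the 75th percentile of olfactory receptors as the ceiling; it was 8787 with the 99th, and 6883 to 7076 when each array was left out. Bright probe sets number 1946 by construction, 973 with the top 5% and 3892 with the top 20%, and the count stayed at 1946 without any single array. Of the 50 list counts of background genes, 29 moved by over 1.5 times with the 75th percentile and 8 with the 99th. Of the bright counts 16 moved with the top 5%. With the 99th percentile IKBKG, HLA-DOB and GPT fell to background, so the absence of background genes in their lists depends on the ceiling. Fits that leave out an array set 1 array against 2 and assume that the lone one varies like the rest; without replicate 3 or 4 the B code fit used the spread shared by all genes alone. The B code gave 10 calls, 5 with no filter on background, 2 after quantile normalization and 2 to 68 when each array was left out. With the last number as a replicate block it gave 21 calls. The last number gave 0 calls, 14 with the B code as a replicate block and 0 to 10 when each array was left out. Arrays of the same last number deviated together across the B codes with a correlation of 0.135 over 11719 genes, and arrays of the same B code across last numbers with 0.028; the labels do not say that these numbers pair the arrays. The RELB difference was -0.15 both with and without B code and last number pairs as a replicate block (p = 0.125 with it in a two-sided exact test, the smallest p that 4 pairs can give, so this test could not pass), -0.11 after quantile normalization and -0.21 to -0.099 when each array was left out, with no p under 0.05 in the unpaired tests. Levels of all 415 named genes moved by less than their SD after quantile normalization. Median centring leaves a mean over the 4 arrays unchanged, and leaving out 1 array cannot move it by its SD. Those settings therefore could not show a move. At exon level, where the probe sets differ, 266 of the 403 genes with values there moved by more than their SD. The causes were not tested. Without scanner files, signal over local background could not be examined.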
